A study of Mus musculus with 24 samples.

Results

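The choroid, the vascular and pigmented layer behind the retina, was profiled by RNA sequencing, and 7 genes of 56065 deposited are described here: the receptors Sirpa, Sirpb1a, Sirpb1b, Sirpb1c, Pilra and Pilrb1, and Cd47, the ligand of Sirpa. The list was chosen by the measured values of Sirpb1c, which was higher after laser and differed between genotypes without it. These differences of Sirpb1c are therefore given as a description with no test. The authors use the word choroid for the dissected pigment epithelium, choroid and sclera together. The 24 libraries came from Ceacam1-/- mice, which lack the first exons of Ceacam1, and from their wild type littermates on a C57BL/6J background. Without laser there were 4 wild type and 4 Ceacam1-/- libraries, and after laser there were 9 wild type and 7 Ceacam1-/- libraries. Lasered eyes received 6 spots of 150 mW, 200 µm and 100 ms each, and the time between laser and collection is not given in the sources used here. Laser and its absence cannot be told apart from library number, which runs from 1 to 19 with laser and from 21 to 28 without. Values are normalized counts, which are estimated reads corrected by the authors for library size and transcript length, and they summed to between 23704346 and 35094410 per library.

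SIRP and PILR genes encode paired receptors of myeloid cells. One member of each pair carries tyrosine motifs in its cytoplasmic tail that recruit the phosphatases Shp1 (Ptpn6) and Shp2 (Ptpn11) and dampen activation. The other member has a short tail and a lysine in its membrane span, through which it binds the adaptor Dap12 (Tyrobp) and activates the cell. Cd47 is a membrane protein of nearly all cells that, by binding Sirpa, restrains engulfment by macrophages, whereas Pilra binds sialylated glycoproteins.

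This division can be read from the coding sequences (GRCm39, transcript with the longest coding part). The most hydrophobic stretch of 21 codons, taken as the membrane span, is shown for both kinds of receptor, 5′ to 3′ on the coding strand, with any lysine codon in capitals.
Sirpa (chr2:129460409-129460471, plus strand): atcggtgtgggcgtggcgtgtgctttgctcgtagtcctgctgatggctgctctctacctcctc
Sirpb1c (chr3:15856679-15856741, minus strand): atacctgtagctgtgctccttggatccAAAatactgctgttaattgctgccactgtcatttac
Pilra (chr5:137829412-137829474, minus strand): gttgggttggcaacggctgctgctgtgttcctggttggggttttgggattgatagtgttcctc
Pilrb1 (chr5:137853154-137853216, minus strand): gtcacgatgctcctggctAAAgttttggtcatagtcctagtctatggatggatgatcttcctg

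The spans of Sirpa and Pilra held no lysine codon, and those of Sirpb1c and Pilrb1 held 1 each. The spans of Sirpb1a (chr3:15444079-15444141) and Sirpb1b (chr3:15568188-15568250) had the same 63 bases as that of Sirpb1c. After the span, 117 codons followed in Sirpa and 85 in Pilra, against 7 in each Sirpb1 gene and 9 in Pilrb1. The tail of Sirpa held 3 tyrosine motifs of the inhibitory kind and that of Pilra held 1, shown with the tyrosine codon in capitals.
Sirpa, codon 440: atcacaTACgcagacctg
Sirpa, codon 481: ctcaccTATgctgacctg
Sirpa, codon 505: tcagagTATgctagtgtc
Pilra, codon 267: atcgtgTATgcttccatc

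The 3 Sirpb1 genes lie side by side on the minus strand of chromosome 3, with Sirpb1a at chr3:15436713-15491580, Sirpb1b at chr3:15560215-15640125 and Sirpb1c at chr3:15817337-15902692. Sirpa lies at chr2:129434039-129474148, Cd47 at chr16:49620896-49735373, and Pilra (chr5:137820214-137834543) and Pilrb1 (chr5:137850409-137856368) are neighbours on chromosome 5. Coding sequences of the Sirpb1 genes were 97.4% identical between Sirpb1a and Sirpb1c and 98.2% between Sirpb1b and Sirpb1c, whereas Sirpa and Sirpb1c shared 71.1%. Pilra and Pilrb1 shared 87.4%. The 60 coding bases in which the Sirpb1 genes differed most are shown because reads can be assigned to one of them only at such positions. Capitals mark the 9 bases that are not the same in all 3.
Sirpb1a (chr3:15482076-15482135): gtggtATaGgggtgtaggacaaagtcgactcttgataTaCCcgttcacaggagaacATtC
Sirpb1b (chr3:15613830-15613889): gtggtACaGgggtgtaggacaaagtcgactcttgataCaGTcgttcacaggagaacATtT
Sirpb1c (chr3:15892952-15893011): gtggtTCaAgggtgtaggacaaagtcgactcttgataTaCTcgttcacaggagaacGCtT

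Of all 31-base words in annotated transcripts, the unit by which salmon usually matches reads, 51.8% of those of Sirpb1c occurred in no other gene, and 40.3% occurred in Sirpb1b and 21.5% in Sirpb1a. Unique words made up 46.7% for Sirpb1a and 42.0% for Sirpb1b. Levels of single Sirpb1 genes are therefore uncertain, and their sum is given beside them. Sirpa had 99.97% unique words and Cd47 94.8%. For Pilra the share was 71.4%, with 14.0% of its words in Zcwpw1, and for Pilrb1 it was 70.8%, with 23.4% in its close relative Pilrb2.

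Sirpb1c, a short-tailed activating receptor, was scarce without laser. The 4 wild type libraries without laser held 24.1, 8.18, 29.02 and 18.6 normalized counts, and the 4 Ceacam1-/- libraries held 0, 1.49, 0 and 7.40. The genotypes did not overlap here, but Sirpb1c was chosen by this difference. The share of all genes without such overlap was not computed. The gap between the lowest wild type and the highest Ceacam1-/- library was less than 1 normalized count. With laser, wild type libraries ranged from 101.7 to 247.1 (median 127.3) and Ceacam1-/- libraries from 34.5 to 206.4 (median 146.9), all above every library without laser. Such a separation within a genotype held for 4.5% of all genes tested in wild type and 1.17% in Ceacam1-/- mice. The log2 difference between laser and no laser, with 1 added to each value, was 2.89 ± 0.53 (SE) in wild type and 5.66 ± 0.55 in Ceacam1-/- mice. Between genotypes without laser it was -3.17 ± 0.86. With 10 added to each value in place of 1, these differences were 2.39, 3.33 and -1.28. Without Ceacam1-/- library 28, which held the 7.40, the last 2 were 6.32 and -3.82 with 1 added.

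Without laser, the sum of Sirpb1a, Sirpb1b and Sirpb1c was also lower on average in Ceacam1-/- libraries, at 17.7 against 37.4 normalized counts. The sum was 24.7, 41.3, 41.1 and 42.4 in the wild type libraries and 11.3, 12.4, 29.8 and 17.5 in the Ceacam1-/- libraries. The genotypes overlapped only through Ceacam1-/- library 25, which lay above wild type library 21. Ceacam1-/- library 25, which listed Sirpb1c and Sirpb1b at 0, held 29.8 normalized counts of Sirpb1a, more than any other library without laser. The mean log2 difference of the sum between genotypes was -1.102, compared with -3.17 for Sirpb1c. Both were computed with 1 added to each value, and the size of the latter depends on that addition. Sirpb1c took 53.5% of the sum in wild type and 12.5% in Ceacam1-/- libraries without laser, and 59.5% and 52.6% with laser. Within wild type libraries without laser this share ranged from 19.8% to 97.6%. How the reads were divided between the genes was not tested.

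**Figure D1:**
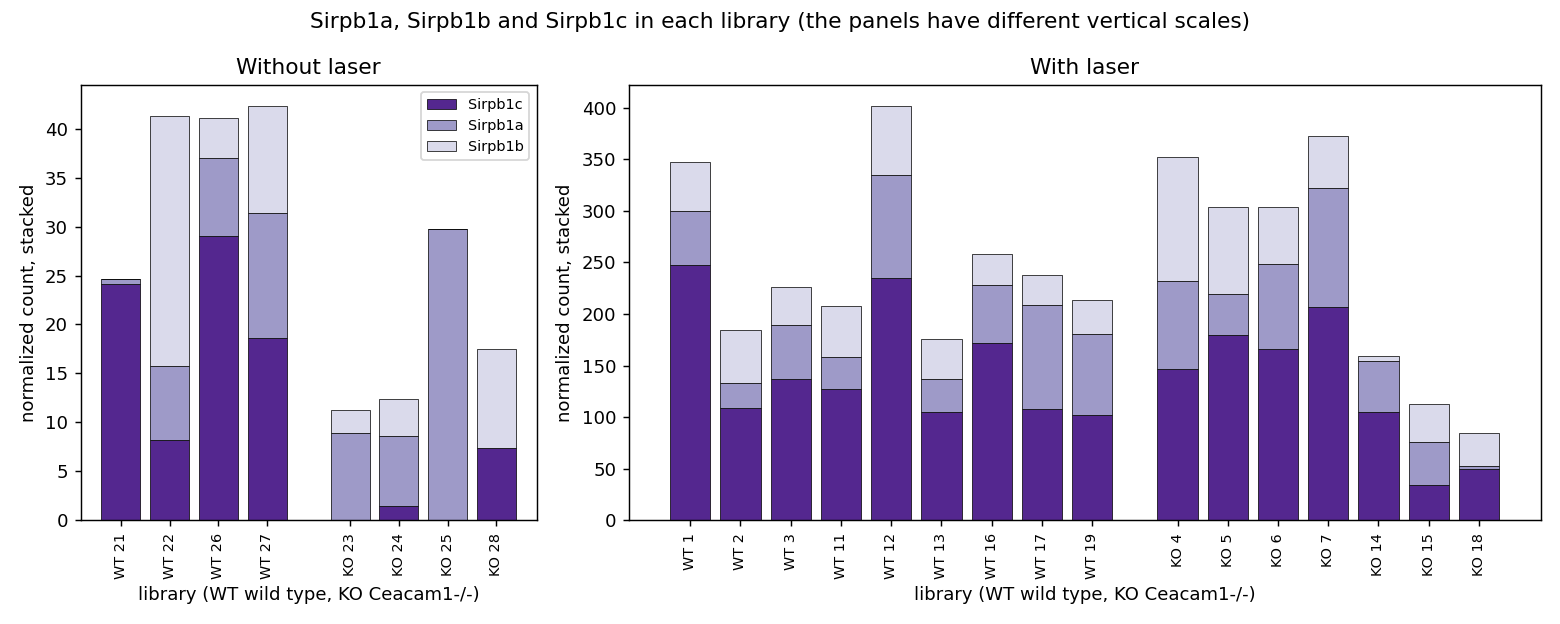
Stacked normalized counts of Sirpb1c (dark), Sirpb1a (middle) and Sirpb1b (light) in each library, by genotype and library number; the vertical scales of the 2 panels differ. Without laser the sums lie between 11.3 and 42.4 with a varying make-up, and with laser between 84.5 and 402.1.

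Per kilobase of exon sequence, Cd47 and Sirpa stood far above the other members. In wild type mice without laser, Cd47 reached 429.1 ± 44.1 normalized counts per kilobase (SD, n = 4) and Sirpa 282.2 ± 65.4. Pilra followed with 14.9 ± 8.4. Sirpb1c (3.81 ± 1.70), Pilrb1 (3.65 ± 2.74), Sirpb1a (3.15 ± 2.18) and Sirpb1b (2.52 ± 2.78) came last and did not differ among themselves beyond their spread. With laser the order in wild type mice was Cd47 (737.5 ± 83.0 per kilobase, n = 9), Sirpa (533.0 ± 103.0), Pilra (53.6 ± 23.4), Sirpb1c (28.4 ± 10.8), Sirpb1a (25.7 ± 12.6), Pilrb1 (11.2 ± 4.5) and Sirpb1b (10.5 ± 3.1). Here Sirpb1c and Sirpb1a were within their spread of each other, as were Pilrb1 and Sirpb1b. Ceacam1-/- mice had the same first 3 genes in both conditions.

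Sirpa, Cd47 and Pilra were higher with laser in both genotypes. Of the members other than Sirpb1c, 4 averaged at least 10 normalized counts also without laser, namely Sirpa, Cd47, Pilra and Pilrb1. The first 3 of them were higher with laser in wild type mice at an adjusted p under 0.05 (limma, Benjamini-Hochberg over 19950 genes), against 4.23% of all genes tested, and also in Ceacam1-/- mice, against 2.07%. The median log2 fold change of these 4 genes was 1.39 for wild type and 1.27 for Ceacam1-/- mice, compared with -0.10 and 0.02 over all genes. Over both genotypes together, Sirpb1a and Sirpb1b averaged less than 10 without laser and passed the filter on low values only through the lasered libraries. Within a genotype, Sirpb1a averaged 11.4 in Ceacam1-/- and Sirpb1b 10.2 in wild type libraries without laser. Because such a filter favours a difference, their values are given as a description. Of the 4 genes above the filter without laser, every laser library lay above every library without laser for Cd47 in both genotypes, as held for 4.5% of all genes tested in wild type and 1.17% in Ceacam1-/- mice. Without wild type library 21, Pilra no longer passed in wild type, and with a filter of 50 the 3 members then tested all passed. The count in Ceacam1-/- mice was 0 without Ceacam1-/- library 25, and also 0 in a fit of the 11 Ceacam1-/- libraries alone, in which 38 genes passed in all.

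Among the members other than Sirpb1c, Cd47 was the one whose lasered and unlasered libraries did not overlap in either genotype. Its 4 wild type libraries without laser held 3835, 4241, 3309 and 3665 normalized counts and its 4 Ceacam1-/- libraries 3960, 3820, 2282 and 3981. With laser, wild type libraries ranged from 4676 to 7272 (median 6693) and Ceacam1-/- libraries from 4421 to 7599 (median 6352). No library without laser reached the lowest library with laser. The log2 fold change was 0.78 ± 0.16 (SE) in wild type (adjusted p = 0.00372, limma) and 0.81 ± 0.16 in Ceacam1-/- mice (adjusted p = 0.00776, limma), or 1.71-fold and 1.76-fold. Without Ceacam1-/- library 25, the lowest of all, the latter was 0.62 with an adjusted p of 0.0596 (limma).

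Sirpa, the inhibitory receptor for Cd47, rose in both genotypes, with overlap between libraries. Wild type libraries without laser held 2508, 1390, 2020 and 1982 normalized counts and Ceacam1-/- libraries 3049, 1461, 1541 and 1603. With laser, wild type libraries ranged from 2451 to 5141 (median 3703) and Ceacam1-/- libraries from 2248 to 3703 (median 3403). Only wild type library 21 and Ceacam1-/- library 23 among the unlasered libraries exceeded the lowest lasered library of their genotype. The log2 fold change was 0.92 ± 0.20 in wild type (adjusted p = 0.00649, limma) and 0.76 ± 0.21 in Ceacam1-/- mice (adjusted p = 0.0408, limma). The latter call was lost in 13 of the alternatives tried, with adjusted p between 0.0505 and 0.217 (limma).

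Sirpb1a and Sirpb1b, activating receptors like Sirpb1c, were at a few counts without laser. Sirpb1a held 0.586, 7.58, 8.00 and 12.7 normalized counts in wild type and 8.95, 7.08, 29.8 and 0 in Ceacam1-/- libraries without laser. With laser it ranged from 24.5 to 101.4 (median 52.6) in wild type and from 2.74 to 116.2 (median 49.4) in Ceacam1-/- libraries, where library 18 lay within the range of the unlasered libraries. The log2 fold change was 3.07 ± 0.81 in wild type and 2.61 ± 0.84 in Ceacam1-/- mice, given without a test because the gene passed the filter only through the lasered libraries. Leaving out 1 library moved the latter between 1.67 (without Ceacam1-/- library 28, at 0) and 3.32 (without library 25), and the former between 2.40 and 3.43.

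Sirpb1b held 0, 25.6, 4.12 and 11.01 normalized counts in wild type and 2.37, 3.83, 0 and 10.1 in Ceacam1-/- libraries without laser. With laser it ranged from 29.1 to 67.0 (median 38.8) in wild type and from 5.61 to 120.2 (median 50.5) in Ceacam1-/- mice. Only Ceacam1-/- library 14 overlapped with the unlasered libraries of its genotype. The log2 fold change was 2.72 ± 0.72 in wild type and 3.53 ± 0.76 in Ceacam1-/- mice, again without a test for the same reason. Leaving out 1 library moved them between 1.84 (without wild type library 21) and 3.41 (without library 22) and between 2.90 and 4.06. Wild type library 21 listed Sirpb1b at 0 and held the lowest wild type level of Sirpb1a.

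Pilra, the inhibitory PILR receptor, held 29.9, 82.7, 45.2 and 25.9 normalized counts in wild type and 36.3, 36.4, 60.4 and 76.8 in Ceacam1-/- libraries without laser. With laser it ranged from 59.4 to 288.4 (median 154.4) in wild type and from 61.7 to 331.6 (median 217.0) in Ceacam1-/- libraries. The lowest lasered library of each genotype, 17 and 18, fell below the highest unlasered one. The log2 fold change was 1.85 ± 0.43 in wild type (adjusted p = 0.0107, limma) and 1.73 ± 0.45 in Ceacam1-/- mice (adjusted p = 0.0317, limma). Leaving out wild type library 21 or 27 gave an adjusted p of 0.0623 or 0.0676 (limma) in wild type. The call in Ceacam1-/- mice was lost in 8 of 22 alternatives, with adjusted p between 0.0538 and 0.187 (limma).

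Pilrb1, its activating counterpart, held 1.11, 15.6, 24.7 and 10.9 normalized counts in wild type and 4.17, 26.4, 9.02 and 17.5 in Ceacam1-/- libraries without laser, and its groups overlapped in both genotypes. With laser it ranged from 19.6 to 64.1 (median 40.9) and from 15.2 to 80.9 (median 53.5). The log2 fold change of 1.91 ± 0.57 in wild type had an adjusted p that was just above the threshold (limma). That of 1.76 ± 0.59 in Ceacam1-/- mice did not pass either (adjusted p = 0.0923, limma), though it did under 1 alternative. Under 9 of the alternatives Pilrb1 passed in wild type, with adjusted p between 0.00365 and 0.0489 (limma), whereas without wild type library 21 its log2 fold change fell to 1.16 (adjusted p = 0.299, limma). The close relative Pilrb2 had log2 fold changes of 1.12 ± 0.68 and 1.57 ± 0.71, neither of which passed.

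**Figure D2:**
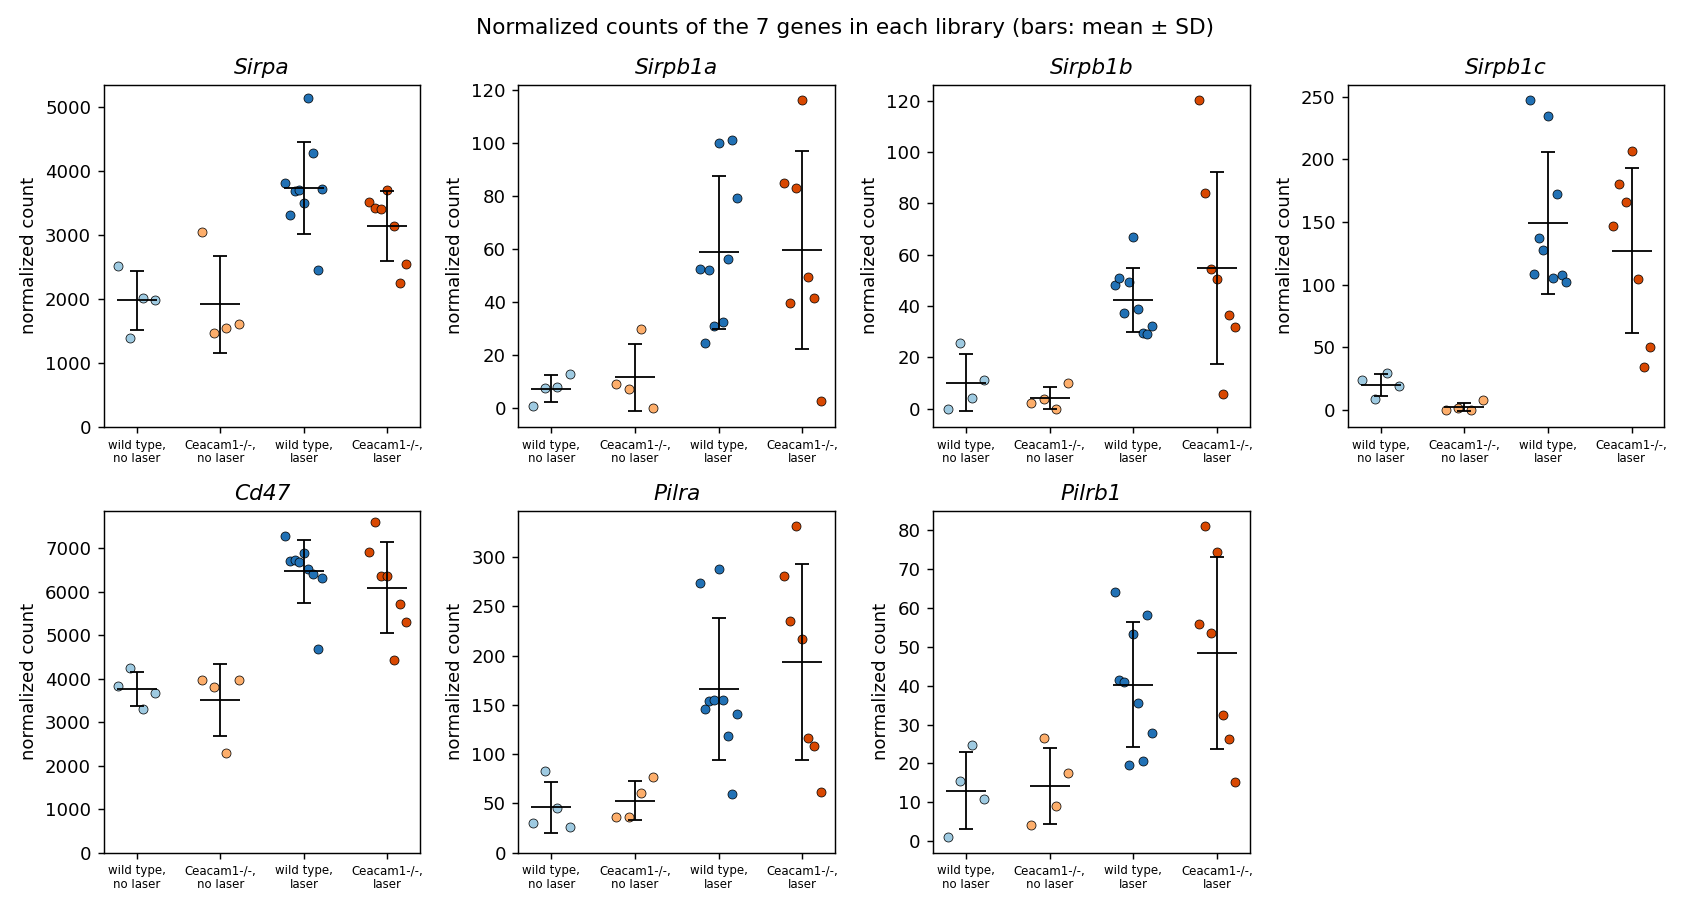
Normalized count of each of the 7 genes (vertical axis, own linear scale per panel) in every library of the 4 groups, with the mean and SD as bars. Cd47 and Sirpa are at no less than 1390 and the other members at no more than 331.6, and for Cd47 all lasered libraries lie above all unlasered ones.

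No member that was tested passed between genotypes, and Sirpb1c was tested with laser but not without. With laser, 0 of the 7 members passed the test of Ceacam1-/- against wild type, against 0.0202% of all 19757 genes. Their log2 differences ran from -0.39 ± 0.36 for Sirpb1c (95% interval -1.15 to 0.37, adjusted p = 0.507, limma) to 0.17 ± 0.37 for Pilrb1. For Sirpa the difference was -0.24 (95% interval -0.55 to 0.06), and for Cd47 it was -0.09 (-0.36 to 0.17). Intervals for Sirpb1a (-1.53 to 0.90), Sirpb1b (-0.95 to 0.97), Pilra (-0.62 to 0.91) and Pilrb1 (-0.61 to 0.96) were wider.

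Without laser, 4 members other than Sirpb1c passed the filter and 0 passed the test, as did 0% of the 20057 genes (limma), 307 of which had an unadjusted p under 0.05. The authors' own test of these genotypes, by DESeq2 with sex as a covariate, did find genes at an adjusted p under 0.05. The 0% therefore belongs to the fit used here. Sirpa differed by -0.09 ± 0.29 on the log2 scale, Cd47 by -0.13 ± 0.22, Pilra by 0.26 ± 0.49 and Pilrb1 by 0.32 ± 0.91. Sirpb1a and Sirpb1b lay below the filter, and a two-sided exact permutation test gave p = 0.914 and p = 0.486 for them, where 4 against 4 allows 0.0286 at the smallest.

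The difference between the laser responses of the 2 genotypes did not pass for Sirpa, Cd47, Pilra or Pilrb1. It did not pass for any gene (0% of 19950, with 1241 at an unadjusted p under 0.05, limma). Sirpb1c, described without a test, had an interaction of 2.78 ± 0.76 on the log2 scale, or 0.94 with 10 added to each value. For the others the interaction lay between -0.46 ± 1.17 for Sirpb1a and 0.80 ± 1.05 for Sirpb1b. These 2 values are descriptions, since both genes passed the filter only through the lasered libraries.

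**Figure D3:**
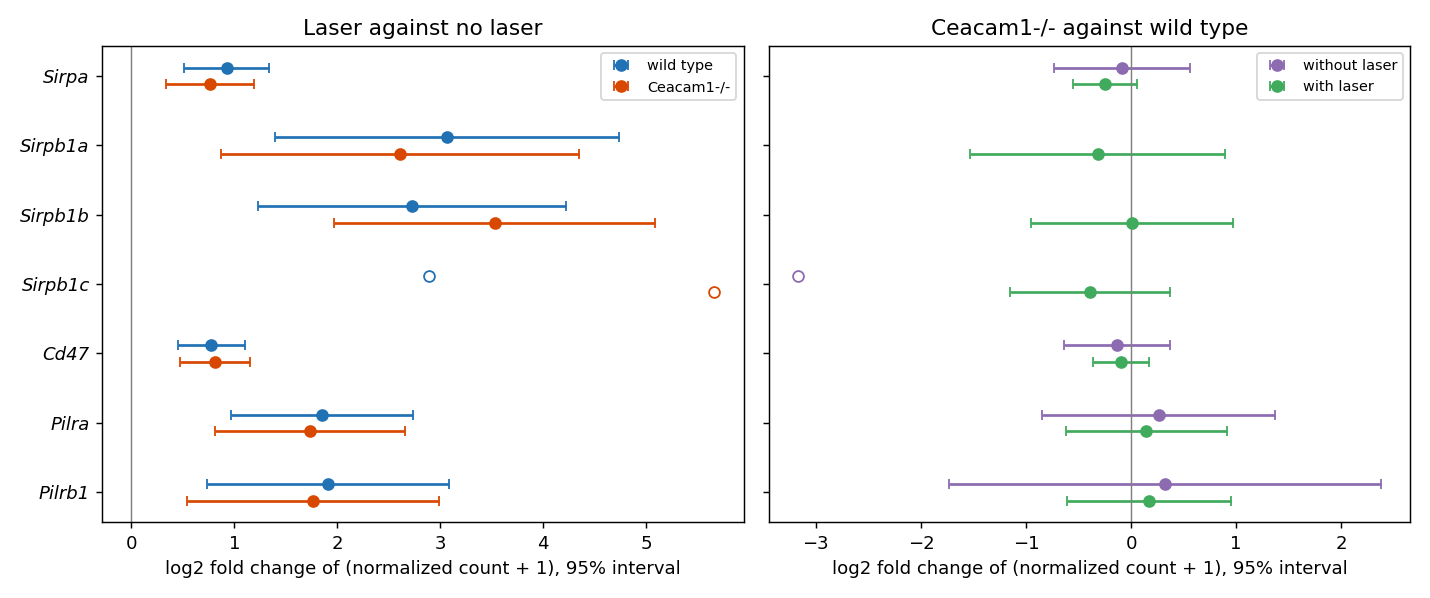
Log2 fold change of each gene (horizontal axis, normalized count plus 1), with 95% intervals as lines; the left panel compares laser with no laser in each genotype and the right panel Ceacam1-/- with wild type in each condition. Open points are the differences of Sirpb1c that were used to choose the genes, and Sirpb1a and Sirpb1b have no value without laser because they lay below the filter. The laser estimates of Sirpa, Cd47, Pilra and Pilrb1 lie above 0. Those of Sirpb1a and Sirpb1b are drawn filled but are descriptions, since both genes passed the filter only through the lasered libraries. Among filled points, all genotype intervals include 0.

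Most genes on the list of signalling partners passed the test with laser in wild type mice. Of these 18 genes, 12 rose in wild type (4.23% of all genes), 6 rose in Ceacam1-/- mice (2.07%) and none fell, with median log2 fold changes of 1.61 and 1.11. Tyrobp, the adaptor of the short-tailed receptors, rose by 2.39 ± 0.38 on the log2 scale in wild type (adjusted p = 0.000379, limma) and by 1.56 ± 0.40 in Ceacam1-/- mice (adjusted p = 0.0305, limma). Ptpn6, the phosphatase Shp1 of leukocytes, rose by 1.439 ± 0.303 and 1.14 ± 0.32. In Ceacam1-/- mice the call was lost in 13 of 22 alternatives for Ptpn6 (adjusted p between 0.0511 and 0.254, limma) in 7 for Tyrobp (between 0.0517 and 0.228, limma) and in 3 for the exchange factor Vav1 (between 0.0594 and 0.168, limma). By contrast, Ptpn11, the broadly expressed Shp2, had differences of 0.15 ± 0.11 and -0.26 ± 0.12 that did not pass. Skap2 and Fyb1, adaptors that act with Sirpa in macrophages, rose in wild type by 1.64 ± 0.26 and 1.86 ± 0.39. In Ceacam1-/- mice their values of 0.71 ± 0.28 and 1.09 ± 0.41 did not pass, though each did in 2 of 22 alternatives. The kinase Fgr rose by 4.40 ± 0.43 and 3.21 ± 0.45 and Vav1 by 2.47 ± 0.34 and 1.63 ± 0.36, in wild type and Ceacam1-/- mice. The kinase Syk (1.25 ± 0.48 and 0.60 ± 0.50) and the adaptor Hcst (1.49 ± 0.48 and 1.17 ± 0.50) did not pass in either genotype, although they did in wild type under 2 and 4 alternatives and in Ceacam1-/- mice under 1 each.

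Of 7 ligand genes tested, 1 was higher in wild type, against 4.23% of all genes, and 0 in Ceacam1-/- mice, against 2.07% (limma). In Ceacam1-/- mice 4 of them had an unadjusted p under 0.05 (limma), as had 3997 of all 19950 genes. So short a list cannot be set apart from all genes by these counts. Median log2 fold changes were 0.16 and 0.40. The gene that passed was Thbs1, the secreted thrombospondin that binds Cd47, at 1.93 ± 0.44 in wild type (adjusted p = 0.00881, limma). In Ceacam1-/- mice its value was 1.23 ± 0.45 (adjusted p = 0.126, limma), which passed under 1 alternative. Colec12, a ligand of Pilra, and Qpctl, the enzyme that modifies the amino end of Cd47 for binding to Sirpa, did not pass, with 1.101 ± 0.538 and 0.30 ± 0.15 in wild type and 0.78 ± 0.56 and 0.40 ± 0.16 in Ceacam1-/- mice.

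The SIRP relative Gm5150 on chromosome 3 was almost absent without laser and present in every lasered library. It was above 0 in 1 of 4 wild type and 1 of 4 Ceacam1-/- libraries without laser, at 0.909 and 3.39 normalized counts. With laser it ranged from 5.81 to 58.9 in wild type and from 10.7 to 42.8 in Ceacam1-/- libraries. The fitted log2 fold changes of 4.58 ± 0.54 and 4.05 ± 0.56 are given without a test, since the gene passed the filter only through the lasered libraries, and they depend on the value of 1 added before the logarithm. Of its words, 78.0% were unique to it.

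Other paired receptors of myeloid cells were counted in the same way. Of the 15 that averaged at least 10 normalized counts also without laser, 12 rose in wild type (4.23% of all genes), 7 rose in Ceacam1-/- mice (2.07%) and none fell, with median log2 fold changes of 2.34 and 1.63. Trem1 and Cd200r4 passed the filter only through the lasered libraries and were left out. Cd300lf rose by 3.24 ± 0.31 and 2.18 ± 0.33 and Cd200r1, an inhibitory receptor for Cd200, by 2.92 ± 0.35 and 1.81 ± 0.37. The Dap12-linked receptors Trem2 (2.84 ± 0.41) and Clec5a (3.24 ± 0.47) rose in wild type, and their values of 1.45 ± 0.42 and 1.63 ± 0.49 in Ceacam1-/- mice did not pass (adjusted p = 0.0549 and 0.0616, limma). They passed there in 5 and 4 of 22 alternatives. Of 15 genes of phagocytosis, 3 rose in wild type and 2 of them also in Ceacam1-/- mice, with medians of 0.66 and 0.23. They were the integrin chain Itgb2 (3.27 ± 0.35 and 2.16 ± 0.36), the small GTPase Rac2 (2.52 ± 0.50 and 2.02 ± 0.52) and, in wild type, the integrin chain Itgam (2.26 ± 0.49), whose Ceacam1-/- value of 1.63 ± 0.51 did not pass (adjusted p = 0.0728, limma, and past the threshold in 2 of 22 alternatives). The Ceacam1-/- call of Rac2 was lost in 7 of 22 alternatives (adjusted p between 0.0530 and 0.203, limma). In the fit of the Ceacam1-/- libraries alone, the calls of Itgb2 (adjusted p = 0.118, limma) and Cd200r1 (0.140) were lost as well, and without wild type library 21 that of Itgam in wild type (0.0612).

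Markers of myeloid cells moved with the same comparison. Of 15 markers, 12 rose with laser in wild type (4.23% of all genes), 8 rose in Ceacam1-/- mice (2.07%) and none fell, with median log2 fold changes of 2.13 and 1.55. None of them was at 0 throughout. Their summed level was between 12472 and 25670 normalized counts in wild type and 13837 and 19131 in Ceacam1-/- libraries without laser. With laser it was between 58334 and 143926 in wild type and 19782 and 104690 in Ceacam1-/- libraries. Lyz2 was the most abundant, with 32.7% to 61.3% of the sum by group. In whole tissue more cells of a type and more RNA per cell cannot be told apart. Of 4 neutrophil markers tested, 2 rose in wild type and 1 rose in Ceacam1-/- mice. Ly6g, which defines neutrophils, was at 0 in all libraries without laser, but other neutrophil markers were present there. The summed neutrophil markers lay between 108.5 and 176.1 in wild type and 158.6 and 255.9 in Ceacam1-/- libraries without laser. Csf3r was the most abundant, and Cxcr2 averaged 51.3 without laser. The lowest log2 fold change among the 4 was -0.06 in wild type and -0.04 in Ceacam1-/- mice. None of 6 lymphoid markers passed in either genotype.

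Ceacam1-/- libraries 14, 15 and 18 stood apart among the lasered ones. They had the lowest 3 myeloid sums of all lasered libraries (32092, 27942 and 19782) and the lowest 3 sums of the Sirpb1 genes (159.6, 112.4 and 84.5). Their sums of 8 photoreceptor markers, 952638, 542771 and 1022210, were above those of every other lasered library, of which the highest was 218279. Photoreceptor markers belong to the retina. Without laser, the highest sums were in Ceacam1-/- library 23 (587718) and wild type library 21 (540022), which also had the highest Sirpa of their groups. Photoreceptor markers differed between laser and no laser by a median log2 value of -1.40 for wild type and 2.30 for Ceacam1-/- mice. In either genotype 0 of 8 passed (limma, also 0 with an unadjusted p under 0.05), where 4.23% and 2.07% of all genes were higher. Markers expected of a choroid, those of endothelium and melanocytes, were present in every library, with sums of at least 8847 and 9580. Libraries 14, 15 and 18 were the lowest of the lasered ones here too, at 8847, 17712 and 12294 for endothelium, 10355, 27412 and 9580 for melanocytes and 68475, 53155 and 39383 for the retinal pigment epithelium. The part of retinal tissue in the levels of these genes was not tested.

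**Figure D4:**
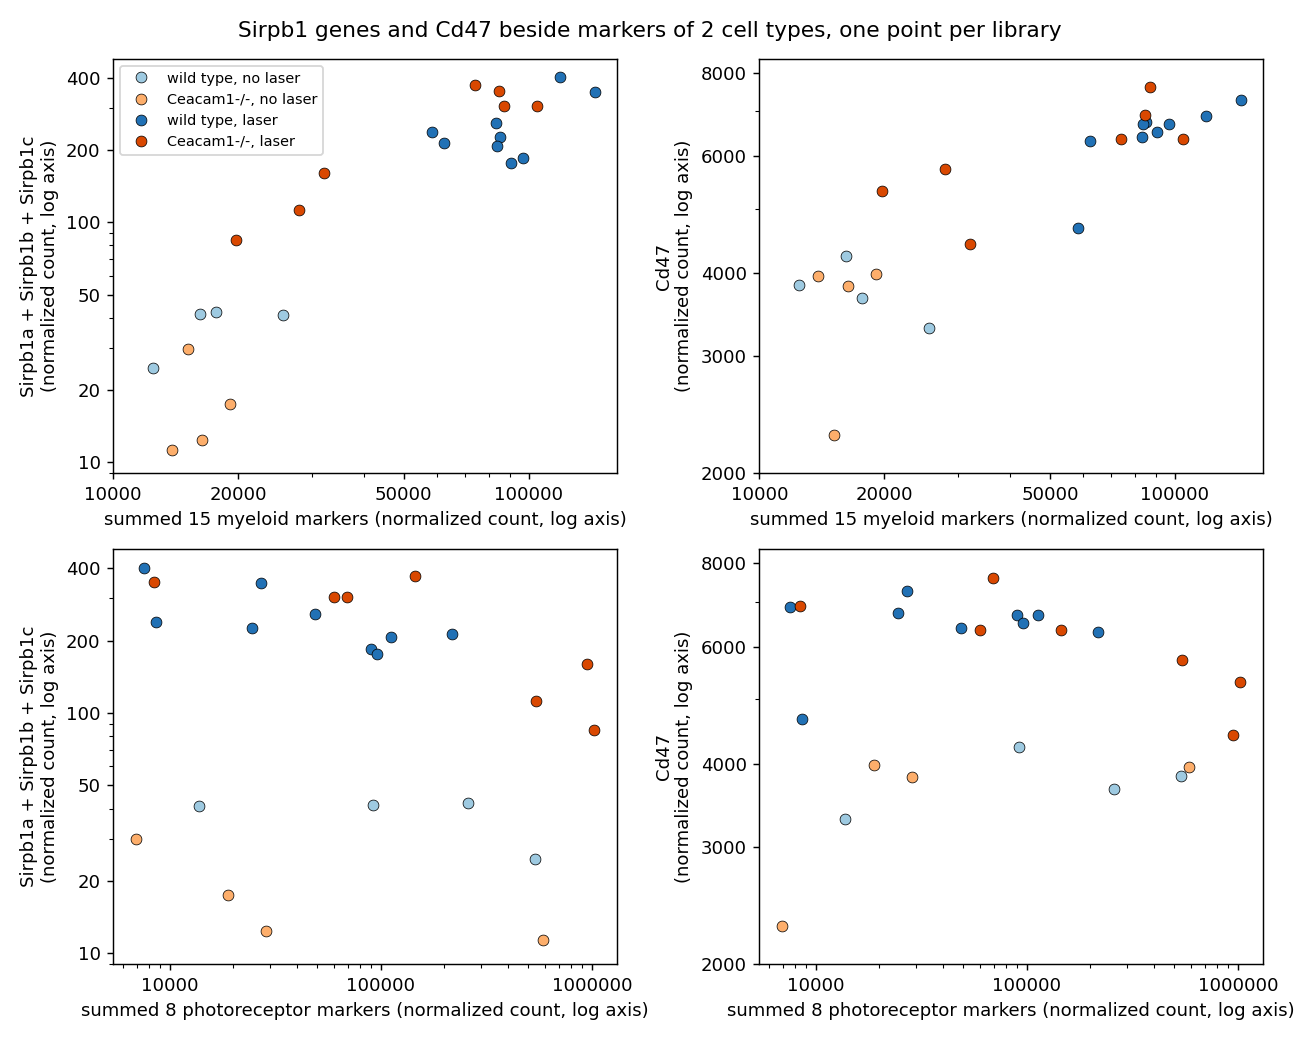
Normalized count of the summed Sirpb1 genes (left) and of Cd47 (right) against the summed normalized count of 15 myeloid markers (top) and 8 photoreceptor markers (bottom), 1 point per library on log axes, coloured by group. Lasered libraries lie above unlasered ones in the Sirpb1 sum and, except Ceacam1-/- library 18, in the myeloid sum. Among lasered wild type libraries these sums do not rank alike. Library 17 has the lowest myeloid sum (58334) with a Sirpb1 sum of 238.0, and library 13 has 90578 with 176.2. The 3 lasered Ceacam1-/- libraries with the highest photoreceptor sums have the lowest Sirpb1 sums of all lasered libraries.

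Over the 16 lasered libraries the members did not all follow each other. The following correlations of log2 values are descriptions without a test, over libraries that share tissue make-up. Sirpb1c correlated with Pilra at r = 0.70, with Pilrb1 at 0.63, with Sirpa at 0.62 and with Cd47 at 0.54, but with Sirpb1b at only 0.34. Sirpb1a and Sirpb1b had r = 0.15, whereas Sirpb1b and Cd47 had 0.80 and Pilra and Cd47 0.73. Sirpa and Pilrb1 were least alike (0.12).

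Among 15737 protein-coding genes, those most like Sirpb1c were Fam237b (r = 0.93), Snx20 (0.92), Pirb (0.91), Tnfaip8l3 (0.91) and Lpxn (0.91). For the sum of the 3 Sirpb1 genes they were Pirb (0.94), Ms4a6c (0.93), Clec4a1 (0.92) and Clec4a3 (0.92), all genes of myeloid cells, followed by Calr (0.91). Cd47 was most like Rcn1 (0.95), Ergic1 (0.94), Uxs1 (0.93), Gja5 (0.92) and Gm20431 (0.92). Sirpa was most like Acox3 and Rab8b (both 0.89), Dnajc10 (0.89), Slc41a2 (0.89) and Mcfd2 (0.87). Pilrb1 was most like Ccl5 (0.93), Arrb2 (0.91), Cklf (0.90), Cd52 (0.89) and Arhgef1 (0.89), and Pilra like Sapcd2 (0.89), Nsl1 (0.87), Tedc1 (0.86), Ergic2 (0.84) and Fam237b (0.83). The genes most like Sirpb1a were Pla2g12b, Siglece, Cyp27a1, Zfp809 and Tnf (0.86 to 0.87), and those most like Sirpb1b included Mfap4, Xbp1, Ssu2 and Rnf166 (0.87 to 0.88). Over all 24 libraries many of these values were lower. There r was between 0.65 and 0.93 for the genes named beside the sum, 0.35 and 0.88 for Sirpb1c, 0.24 and 0.89 for Cd47, 0.75 and 0.86 for Sirpa, 0.37 and 0.90 for Pilrb1, 0.64 and 0.82 for Pilra, -0.01 and 0.70 for Sirpb1a, and 0.06 and 0.73 for Sirpb1b. The lowest was that of Cyp27a1 with Sirpb1a.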

How the data were processed

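RNA of the choroid was made into SMART-Seq libraries, a method for low input. The authors quantified reads with Salmon 1.10.3 against GRCm39, imported them into DESeq2 1.44.0, removed an outlier library and deposited normalized counts, a signal that is not whole reads. Column sums follow from that normalization, so the depth in reads per library is unknown. Quality was checked with FastQC 0.11.5, per the labels.

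Identifiers were matched to GENCODE vM39 (99.1% of 56065). Groups came from the sample labels, and p-values measure the spread between these libraries. Log2 of the normalized count plus 1 was tested with limma 3.58.1 (R 4.3.3, variance trend) for genes with a mean of at least 10, with Benjamini-Hochberg adjustment and a threshold of 0.05. The laser comparisons and their interaction used all 24 libraries. Genotype was compared in the 8 libraries without and the 16 with laser. The labels give no sex, so this covariate of the authors was replaced by summed Y-linked genes in an alternative. Alternatives were pseudocounts of 0.5 and 10, filters of none and 50, quantile and upper-quartile normalization, limma without trend or with robust variances, array weights, other libraries in the fit, words of 25 and 51 bases, and leaving out each library. Leaving out lasered libraries and summing the Sirpb1 genes were chosen after seeing the data. The fit was tested on simulated data.

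All 7 members were named, together with partner genes, up to 4 genes of lowest p per list past the threshold with laser in wild type, and the 5 genes most like each member, of which 1 is not reported here. Sirpb1b and Sirpb1a were also summed with Sirpb1c, and genes like that sum were named after it was seen. Members and lists were chosen with earlier results of these data known. Cd99 and Gm9733, on the lists, matched no symbol. Endothelial, melanocyte, pigment epithelium, photoreceptor, inner retina, muscle, lymphoid and erythroid markers had 0 genes past the threshold with laser in either genotype. Of all genes, 4.23% were higher in wild type and 2.07% in Ceacam1-/- mice. Of 5 fibroblast markers 1 was higher in both, with median log2 fold changes of 1.11 and 1.23. The medians were -0.12 and -1.66 for pigment epithelium and -0.94 and -2.07 for muscle. Protein identity was not computed, and coding sequences were compared in its place. Tables were computed in Python 3.11.15 (scipy 1.17.1, numpy 2.4.6, pandas 2.3.3), and figures were drawn by matplotlib 3.10.9.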

Additional observations from a re-analysis of the deposited data

Results flagged for a closer look

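In 28 combinations of a gene and a group, 3 libraries lay far from the rest of their group, where chance alone marks about 1 in 20. Sirpa in Ceacam1-/- library 23 without laser was 3049 normalized counts, compared with 1603 in the next highest library. Cd47 in Ceacam1-/- library 25 without laser was 2282 normalized counts, compared with 3820 in the next lowest. Cd47 in wild type library 17 with laser was 4676 normalized counts, compared with 6311 in the next lowest.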

How the results depend on the processing

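Of 5 calls with laser in wild type and 4 in Ceacam1-/- mice, which include Sirpb1a and Sirpb1b where they passed and are no support for these genes, every log2 fold change kept its direction under all alternatives. In the main fit, 4.23% of all 19950 genes were higher with laser in wild type and 2.07% in Ceacam1-/- mice. In wild type, all 3 members tested passed with a filter of 50, and 2 to 6 when a library was left out. In Ceacam1-/- mice, 2 passed without a filter, 2 after quantile normalization, 0 in a fit of these libraries alone, and 0 to 5 when a library was left out. Apart from the filter of 50, these counts can include Sirpb1a and Sirpb1b. Totals over all genes under such settings follow. Genes past the threshold in wild type numbered 1053 (80.2% higher), 6505 with array weights (49.8% higher), 2274 in a fit of wild type alone (69.8% higher) and 479 to 1162 without a library. In Ceacam1-/- mice they numbered 742, with 437 without a filter, 3551 with array weights, 38 in a fit of these libraries alone (94.7% higher) and 148 to 2488 without a library (89.9% higher without library 25, 83.9% without 24, and 45.6% without 23). Between genotypes without laser, 1 gene passed without trend and 1 with array weights, and 0 to 1 without a library. With laser 4 passed, against 2 with a filter of 50, 297 with array weights, 9 in the fit of all libraries and 4 to 61 without a library. The causes were not tested. No member other than Sirpb1c passed in these comparisons or the interaction under any alternative, and Sirpb1c, tested between genotypes with laser only, did not pass there either.

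Differences that changed sign were all outside the threshold. With array weights the interaction was 0.13 for Sirpa, 0.92 for Sirpb1a, 0.14 for Pilra and 0.046 for Pilrb1, and the genotype difference with laser was 0.47 for Sirpb1a, 0.18 for Sirpb1c and 0.011 for Cd47. With the Y-linked covariate the interaction was -0.025 for Cd47 and the genotype difference with laser 0.21 for Sirpb1a. A pseudocount of 10 gave an interaction of 0.060 for Pilrb1, and one of 0.5 a difference with laser of -0.0012 for Sirpb1b. Quantile normalization gave -0.19 for Sirpb1b, 0.0098 for Cd47 and -0.059 for Pilrb1 with laser. Leaving out a library moved the interaction between -0.28 and 0.088 for Sirpa, -1.40 and 0.25 for Sirpb1a, -0.16 and 0.11 for Cd47, -0.45 and 0.12 for Pilra, and -0.60 and 0.61 for Pilrb1. The genotype difference without laser moved between -0.33 and 0.040 for Sirpa, -0.20 and 0.065 for Cd47, and -0.43 and 0.77 for Pilrb1. With laser it moved between -0.56 and 0.27 for Sirpb1a, -0.24 and 0.46 for Sirpb1b, and -0.023 and 0.38 for Pilra. Over all 24 libraries, r of Sirpb1a with Cyp27a1 was -0.010.

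No paired analysis was possible because the labels used here number the libraries and do not name the animals. Whether any libraries share a mouse or a litter is therefore unknown. Levels of a few normalized counts, as in single libraries without laser for the Sirpb1 genes and Pilrb1, rest on few reads.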
